A study of Mus musculus with 19 samples.

Results

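Preleptotene spermatocytes with low levels of STRA8 were compared with preleptotene cells that lack a functional Stra8 gene, using 2 low-STRA8 and 3 Stra8-deficient RNA-seq libraries. The comparison covers every gene above 1 TPM (a transcript level corrected for transcript length and library size) in at least 1 of these 5 libraries, which gave 12359 of the 22419 protein-coding genes in the series. Estimated counts could be assigned to 12340 of them, and these were tested; 10833 of the 12359 exceeded 1 TPM in all 5 libraries. All cells came from male C57BL/6 mice carrying 1 copy of Ddx4-Cre and 1 copy of a tdTomato reporter at Rosa26, so that germ cells glow red from the Ddx4 promoter's Cre activity. Spermatogenesis was synchronized by the retinoic acid synthesis inhibitor WIN18,446 from postnatal day 2 to 8 and by retinoic acid on day 9, and testes were collected about 6.75 days later, so that inhibitor, retinoic acid and both reporter alleles are shared by all groups. Stra8-deficient cells were homozygous for the null allele, and low-STRA8 cells came from heterozygous (Stra8+/-) mice whose testis biopsies stained weakly for STRA8, which the study places early in the preleptotene stage. The groups therefore differ both in genotype and in the staining by which heterozygous mice were chosen, and these cannot be told apart here. High-STRA8 cells, from heterozygous mice with strong staining (2 libraries), serve as a reference for levels. Their libraries also entered the fit, so they contribute to the spread behind every edgeR p-value.

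Preleptotene cells are the last germ cells before meiotic prophase: they leave the mitotic divisions of spermatogonia, replicate their DNA once more in meiotic S phase and then begin to pair and recombine homologous chromosomes. STRA8 is a germ-cell factor induced by retinoic acid at this step, and without it germ cells reach the preleptotene stage but do not go on through meiosis. MEIOSIN, encoded by Gm4969, is its known partner.

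The libraries held 25049625 to 30015072 estimated counts, with 11742 to 11852 genes over 1 TPM in Stra8-deficient and 11084 and 11591 in low-STRA8 libraries. The labels call the libraries replicates and the study calls them biological replicates. The p-values measure the spread between replicates within the groups, high-STRA8 included. The germ cell gene Ddx4 lay between 148 and 213 TPM in the 5 libraries, the differentiating-germ-cell receptor gene Kit between 390 and 711 TPM, and the late spermatid genes Tnp1 and Prm1 at or below 1.45 TPM. Some somatic RNA was present: the summed level of 24 Sertoli cell markers was 1513, 2100 and 1679 TPM in Stra8-deficient libraries and 2082 and 560 TPM in low-STRA8 replicates 1 and 2, so that low-STRA8 replicate 2 held the least. Summed macrophage and blood cell markers were 23.2, 18.5 and 71.1 TPM in Stra8-deficient and 66.8 and 60.9 TPM in low-STRA8 libraries.

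Stra8 itself (mm10, chr6:34920163-34939344, plus strand) had 17.97, 22.8 and 5.16 TPM in the Stra8-deficient and 315 and 236 TPM in the low-STRA8 libraries. The groups did not overlap, and the level was 20.1-fold higher in low-STRA8 cells (log2 fold change 4.33, SE 0.42, adjusted p = 0.00149, edgeR), as the labels imply. Gm4969 had 220, 370 and 122 TPM against 324 and 200 TPM. These values overlap, and no difference was detected (log2 fold change 0.34, SE 0.377, adjusted p = 0.546, edgeR), whereas high-STRA8 libraries held 1000 and 1175 TPM.

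Across the genome, 1274 genes (10.3% of those tested) had more RNA and 1735 (14.1%) less in low-STRA8 cells, with Stra8-deficient cells as the baseline and an adjusted p of 0.05 as the threshold (edgeR). Decreases were larger: 619 of the lower genes changed by at least 2-fold, against 112 of the higher genes, and the median log2 fold change was -0.81 among the former and 0.52 among the latter. The TPM values of the groups did not overlap for 1106 of the higher and 1732 of the lower genes. For reading those counts, the low-STRA8 values lay wholly above in 12.1% and wholly below in 39.7% of all genes tested. With only these 5 libraries in the fit, 679 genes were higher and 1129 lower; fewer higher genes were also called without Stra8-deficient replicate 2 (618), low-STRA8 replicate 1 (761), high-STRA8 replicate 1 (702) or high-STRA8 replicate 2 (693), and fewer lower genes without Stra8-deficient replicate 2 (1085) or high-STRA8 replicate 2 (1138). The split also moved with the scale, since limma on log2(TPM + 1) called 498 genes higher and 2668 lower, that is 15.7% of calls higher against 42.3% with edgeR. The median of all genes was -0.16 on that scale and 0.03 in the edgeR fit.

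**Figure D1:**
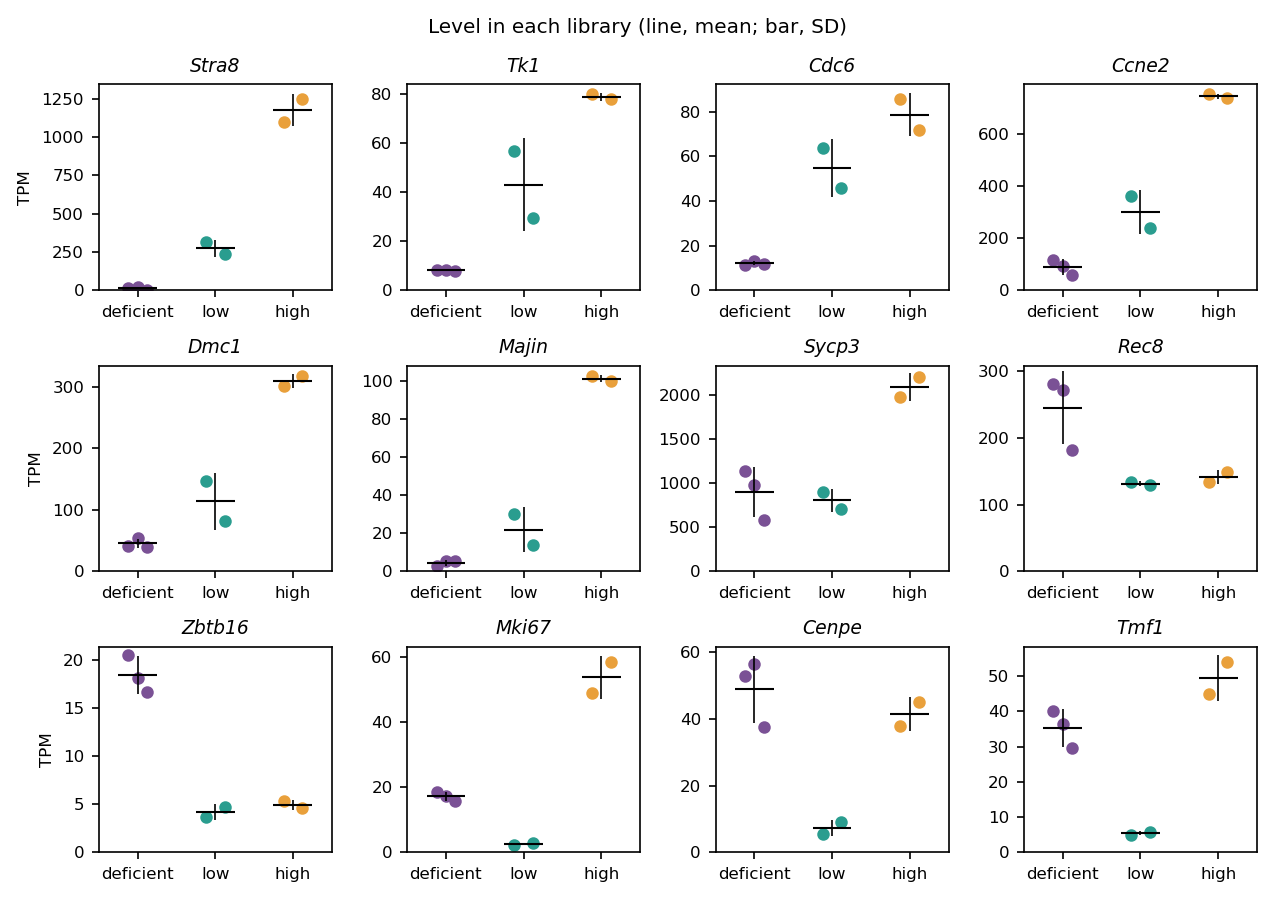
Level (TPM, linear axes from 0) of 12 genes in each library of Stra8-deficient (deficient, 3 libraries), low-STRA8 (low, 2) and high-STRA8 (high, 2) cells; points are libraries, lines are means and bars are SD. Tk1, Cdc6, Ccne2, Dmc1 and Majin lay above the Stra8-deficient libraries in both low-STRA8 libraries, Zbtb16 and Rec8 lay below in low- and high-STRA8 libraries, and Mki67, Cenpe and Tmf1 were lowest in the low-STRA8 libraries.

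Fold changes followed transcript length. The 12340 genes were divided into 5 equal classes by mean effective length (the length available to reads, as estimated by kallisto), with upper limits of 1306, 2096, 2989 and 4365 bases for the first 4 classes. From the shortest to the longest class, the median log2 fold change fell from 0.27 through 0.14, 0.05 and -0.07 to -0.38. In the shortest class 438 genes were higher and 50 lower; in the longest, 64 were higher and 975 lower, which is 56.2% of all lower genes. Lower genes had a median length of 4706 bases, higher genes 1744 bases and all genes 2530 bases. Across the 12340 genes, Spearman's rho of fold change with length was -0.43, a description only, since all genes share the same 5 libraries. The order was kept among the 9218 genes whose mean reached 5 TPM in both groups (medians of 0.30 in their shortest and -0.30 in their longest class). GC content of the most abundant transcript was related less (rho = -0.13 over 12324 genes).

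**Figure D2:**
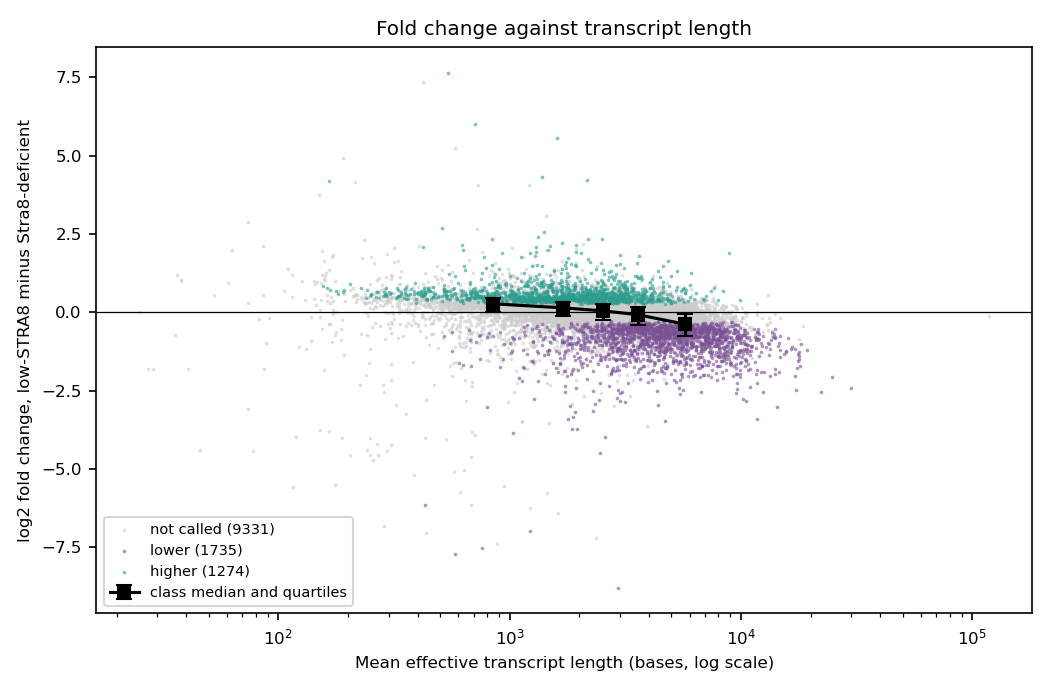
Log2 fold change, low-STRA8 minus Stra8-deficient, against mean effective transcript length (bases, log axis) for 12340 genes; colors mark 1274 higher and 1735 lower genes, and squares with bars are the median and quartiles of each of 5 length classes. The class medians descend from 0.27 to -0.38.

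The trend was also seen library by library. Each library was set against the mean of all 7, and the median deviation of the longest class minus that of the shortest class was 0.31, 0.23 and -0.08 in Stra8-deficient replicates 1, 2 and 3, -0.51 and -0.47 in low-STRA8 replicates 1 and 2, and 0.22 and 0.31 in high-STRA8 replicates 1 and 2 (log2). Both low-STRA8 libraries thus lay below every other library, and Stra8-deficient replicate 3 lay between them and the rest. Over the 5 libraries the exact two-sided permutation p was 0.2. This is the smallest that the test used, which doubles the one-sided p, can give for 2 against 3 libraries. That replicate differed from replicates 1 and 2 of its own group in the same manner, with medians of 0.20 in the shortest and -0.14 in the longest class and a rho of -0.37 with length. Low-STRA8 replicates differed less from each other (rho = -0.09). Without Stra8-deficient replicate 3, the fall from the shortest to the longest class was larger, -0.77 in place of -0.65. Against Stra8-deficient cells, high-STRA8 cells had medians of -0.10 in the shortest and 0.04 in the longest class. The sources used here give no measure of RNA integrity for single libraries, and the part of RNA quality in this trend was not tested.

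**Figure D3:**
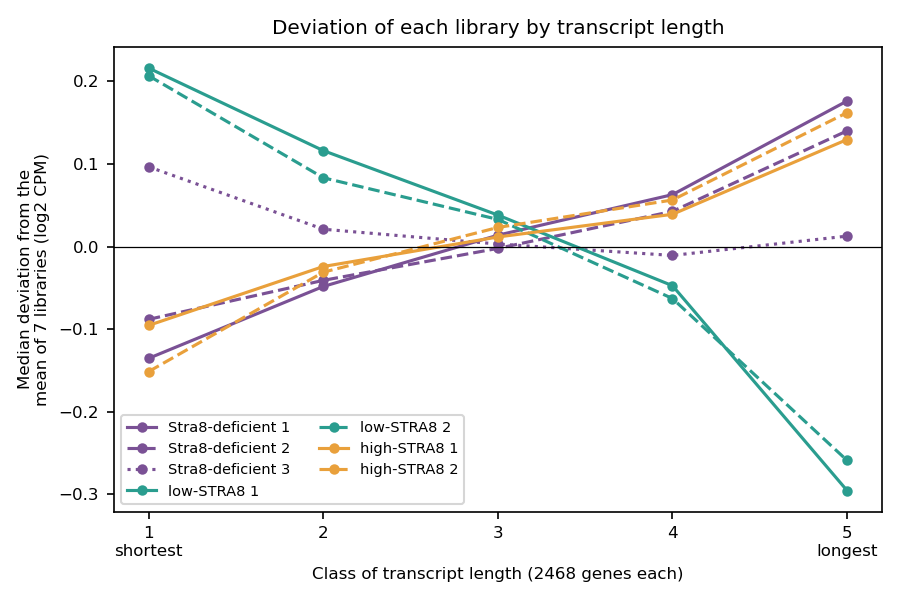
Median deviation of each library from the mean of all 7 libraries (log2 of counts scaled to library size) in 5 classes of transcript length. Both low-STRA8 libraries run from 0.22 and 0.21 in the shortest class to -0.30 and -0.26 in the longest, opposite to Stra8-deficient replicates 1 and 2 and both high-STRA8 libraries, with Stra8-deficient replicate 3 near 0 in the longest class.

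The main gene lists are therefore also counted in a fit in which a smooth trend with length was removed from every library. That fit called 1140 genes higher (9.24%) and 1091 lower (8.84%); 709 genes were higher and 982 lower in both fits. Of 975 lower genes in the longest class, 359 were also lower without the trend, and of 438 higher genes in the shortest class, 82 were also higher. Removing the trend also removes any change in the cells that follows length, and these cannot be told apart. Counts of each list below are to be read beside 9.24% higher and 8.84% lower over all genes in that fit. With the trend kept, the shares over all genes were 10.3% and 14.1%. Limma on log2(TPM + 1) called 498 of 12340 genes higher and 2668 lower.

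Many genes of DNA replication were higher in low-STRA8 cells with and without the length trend. Of 31 tested genes for licensing and firing replication origins, 19 were higher and 1 lower (median log2 fold change 0.59), and 20 were higher and 0 lower without the trend (median 0.66). With only the 5 compared libraries in the fit, 17 were higher and 0 lower, and by limma on log2(TPM + 1) 13 and 1. Cdc6, which loads the replicative helicase onto origins, had 11.6, 13.4 and 11.8 TPM in Stra8-deficient and 63.9 and 45.8 TPM in low-STRA8 libraries. It was 5.09-fold higher (log2 fold change 2.35, SE 0.14, adjusted p = 0.000516, edgeR). Gins3, a subunit of the active helicase, had 9.70, 11.4 and 9.05 against 31.5 and 21.9 TPM (1.62, SE 0.159, adjusted p = 0.00149). The licensing inhibitor gene Gmnn had 101, 119 and 99.6 against 253 and 202 TPM (1.27, SE 0.112, adjusted p = 0.00149). For all 3 genes, both low-STRA8 libraries lay above every Stra8-deficient library. Among helicase subunits Mcm5, Mcm4 and Mcm6 were higher by 1.10, 0.83 and 0.66, and the initiator kinase gene Cdc7 by 0.75. Orc6 was higher by 0.91, while Orc4 (0.16, adjusted p = 0.582) and the Cdc7 activator gene Dbf4 (-0.05, adjusted p = 0.754) did not pass. Recql4, a helicase gene, was the lower one (-0.40, adjusted p = 0.0405); it had -0.19 without the trend.

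At the replication fork, 25 of 43 genes were higher and 2 lower (median 0.46), and 21 and 1 without the trend (median 0.50). With only the 5 compared libraries in the fit, 19 were higher and 1 lower, and by limma on log2(TPM + 1) 17 and 4. Tk1, which salvages thymidine for DNA synthesis, had 8.43, 8.39 and 8.01 TPM in Stra8-deficient and 56.6 and 29.6 TPM in low-STRA8 libraries (5.97-fold, log2 fold change 2.58, SE 0.222, adjusted p = 0.00149, edgeR). Prim1, which encodes the catalytic subunit of primase, had 32.6, 30.6 and 32.0 against 136 and 72.6 TPM (1.90, SE 0.206, adjusted p = 0.00167). Rrm2, a subunit of ribonucleotide reductase, had 96.9, 114 and 79.3 against 352 and 214 TPM (1.74, SE 0.192, adjusted p = 0.00172). In each case low-STRA8 replicate 1 was the higher of its pair, and both lay above the Stra8-deficient libraries. Rfc1, the large subunit of the clamp loader, was lower in both fits (-0.99 and -0.83), whereas the clamp gene Pcna was higher (0.85, adjusted p = 0.00522).

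Over all genes, 10.3% were higher and 14.1% lower, or 9.24% and 8.84% without the trend. By limma on log2(TPM + 1), 498 of 12340 genes were higher and 2668 lower. Among 31 regulators of the G1-S transition, 8 were higher and 4 lower (5 and 3 without the trend, and 4 and 6 by limma on log2(TPM + 1)). Only 4 were higher without low-STRA8 replicate 1, Stra8-deficient replicate 1 or either high-STRA8 replicate, and 2 were lower without Stra8-deficient replicate 1 or 2 or high-STRA8 replicate 2. Ccne2, a cyclin that drives entry into S phase, had 118, 94.6 and 58.9 TPM against 362 and 241 TPM (3.79-fold, log2 fold change 1.92, SE 0.247, adjusted p = 0.00249, edgeR). Its paralog Ccne1 had 22.7, 28.8 and 23.0 against 24.9 and 20.1 TPM, overlapping levels with no difference detected (0.05, adjusted p = 0.818), and 51.0 and 50.9 TPM in high-STRA8 libraries. The phosphatase gene Cdc25a was higher (1.15, adjusted p = 0.00197). The G1 cyclin gene Ccnd1 was lower, at 285, 287 and 254 against 139 and 167 TPM (-0.65, SE 0.123, adjusted p = 0.00856), with no overlap, and 69.3 and 61.5 TPM in high-STRA8 libraries. Levels of E2f1 overlapped (30.8 to 50.9 against 46.0 and 62.3 TPM), and its call (0.69, adjusted p = 0.0404) was lost without the trend (adjusted p = 0.0537). That call was also lost by limma, with only the 5 compared libraries in the fit, and without Stra8-deficient replicate 1 or 3, among other settings.

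For meiotic recombination, 18 of 39 genes were higher and 4 lower (median 0.50), and 17 and 1 without the trend (median 0.47); 2 were lower without Stra8-deficient replicate 1. Dmc1, the meiotic strand-exchange recombinase, had 41.5, 54.6 and 39.96 TPM in Stra8-deficient and 147 and 81.5 TPM in low-STRA8 libraries (2.85-fold, log2 fold change 1.51, SE 0.217, adjusted p = 0.00335, edgeR). The groups did not overlap, and high-STRA8 libraries held 301 and 317 TPM. Higher too were Msh5, a crossover factor (1.54), M1ap (1.48), Ccdc36, an accessory factor of double-strand break formation (1.28), Hsf2bp, a BRCA2-binding protein gene (1.13), and Mei4 (0.72). For Prdm9 and Mei1 the groups overlapped. Prdm9, which sets the sites of breaks, had 29.0, 25.7 and 21.4 against 29.7 and 21.2 TPM (0.16, adjusted p = 0.513), and 132 and 158 TPM in high-STRA8 libraries. Mei1 had a log2 fold change of 0.50 (adjusted p = 0.0663, or 0.0385 without the trend). Spo11, the break-forming enzyme, had 2.49, 1.67 and 2.08 against 3.66 and 4.10 TPM (1.06, SE 0.311, adjusted p = 0.0394), but the call was lost without the trend (adjusted p = 0.0872) and without any of the 3 Stra8-deficient libraries, low-STRA8 replicate 2 or either high-STRA8 library. Those lower were Ankrd31 (-1.24), Tex15 (-1.04), Brca2 (-0.94) and Mlh3 (-0.69). Brca2, a long transcript (8870 bases) whose product loads recombinases, had 42.0, 36.9 and 24.9 against 16.8 and 14.8 TPM, and its adjusted p was 0.0111 with and 0.208 without the trend; Ankrd31 was lower in both fits (-1.02 without the trend, adjusted p = 0.0059).

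Of 8 genes for attaching meiotic telomeres to the nuclear envelope, 3 were higher and 0 lower in both fits. Majin, the membrane anchor of the complex, had 2.87, 5.63 and 5.30 TPM in Stra8-deficient and 30.2 and 13.7 TPM in low-STRA8 libraries (5.24-fold, log2 fold change 2.39, SE 0.36, adjusted p = 0.00398, edgeR). Its partner Terb2 was 1.83-fold higher (0.88, adjusted p = 0.00601). Terb1, the third member, had 11.3, 10.6 and 7.77 against 10.6 and 7.58 TPM (0.06, adjusted p = 0.857), and 39.7 and 44.1 TPM in high-STRA8 libraries. Of these 3 genes, Majin and Terb2 lay above the Stra8-deficient levels in both low-STRA8 libraries, and Terb1 overlapped them.

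Cohesins and the synaptonemal complex, the scaffold between paired chromosomes, showed calls in both directions: 5 of 14 genes were higher and 3 lower, and 2 and 3 both without the trend and by limma on log2(TPM + 1). Sycp3, of the axial element, had 1136, 975 and 585 TPM in Stra8-deficient and 899 and 709 TPM in low-STRA8 libraries, fully overlapping (0.04, SE 0.224, adjusted p = 0.924, edgeR), and 1980 and 2204 TPM in high-STRA8 libraries. Rad21l, a meiotic kleisin, was higher (0.96, adjusted p = 0.00283). Rec8, the other meiotic kleisin, was lower, at 281, 272 and 183 against 134 and 129 TPM (-0.70, SE 0.162, adjusted p = 0.0177), and stayed at 135 and 149 TPM in high-STRA8 libraries. The call of Rec8 was lost without Stra8-deficient replicate 1 or 2 or low-STRA8 replicate 1. Sycp1, another synaptonemal complex gene, was lower (-0.90, adjusted p = 0.0302, edgeR), as was Sycp2 (-1.28, adjusted p = 0.0188). Both calls were lost without Stra8-deficient replicate 2 or either low-STRA8 replicate, among other libraries. In this list 0 genes were lower without Stra8-deficient replicate 2 or low-STRA8 replicate 1, and 1 was without Stra8-deficient replicate 1, low-STRA8 replicate 2 or high-STRA8 replicate 2; 3 were higher without low-STRA8 replicate 1 or either high-STRA8 replicate.

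Of 58 genes of G2 and mitosis, 17 were lower and 7 higher (median -0.14), and 16 and 6 without the trend (median -0.18). Over all genes, 14.1% were lower and 10.3% higher (8.84% and 9.24% without the trend). By limma on log2(TPM + 1), 26 of the 58 genes were lower and 4 higher, beside 2668 and 498 of all 12340 genes. Without low-STRA8 replicate 2, 11 were lower and 9 higher, and without low-STRA8 replicate 1, 16 and 3. Mki67, whose product coats mitotic chromosomes and marks dividing cells, had 18.6, 17.5 and 15.9 TPM in Stra8-deficient and 2.38 and 2.75 TPM in low-STRA8 libraries. It was 5.93-fold lower (log2 fold change -2.57, SE 0.142, adjusted p = 0.000516, edgeR). The kinetochore motor gene Cenpe had 52.9, 56.5 and 37.5 against 5.55 and 9.07 TPM (-2.55, SE 0.261, adjusted p = 0.00162), and Cenpf had 42.1, 49.1 and 26.2 against 6.52 and 6.09 TPM (-2.45, SE 0.237, adjusted p = 0.00149). These 3 transcripts are long (9506, 6716 and 9643 bases), and their log2 fold changes without the trend were -1.88, -2.09 and -1.73, all still past the threshold. In high-STRA8 libraries their levels were 49.2 and 58.5, 37.8 and 45.1, and 71.4 and 80.1 TPM. The shorter transcripts of the mitotic kinase Plk1 (2341 bases, -0.80, adjusted p = 0.0204) and of cyclin B1, Ccnb1 (1481 bases, -0.57, adjusted p = 0.0295), were lower too. For both, the order continued downwards: Plk1 had 18.8 to 24.8, 10.6 to 11.5 and 3.02 to 3.96 TPM in Stra8-deficient, low- and high-STRA8 libraries. Among the higher members were the mitotic inhibitor kinase gene Wee1 (0.77, adjusted p = 0.00543) and the meiotic cyclin gene Ccnb3 (1.05, adjusted p = 0.00387).

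Some genes that mark earlier germ cells were lower. Of 18 tested genes of undifferentiated spermatogonia, the stem and progenitor cells, 5 were lower and 1 higher (4 and 1 without the trend). The rest had no call. Over all genes, 14.1% were lower and 10.3% higher (8.84% and 9.24% without the trend). Zbtb16, a transcription factor of stem cell maintenance, had 20.6, 18.2 and 16.7 TPM in Stra8-deficient and 3.65 and 4.76 TPM in low-STRA8 libraries (3.87-fold lower, log2 fold change -1.95, SE 0.156, adjusted p = 0.00135, edgeR). Sall4 had 28.8, 17.5 and 13.2 against 3.69 and 6.38 TPM (-1.74, SE 0.286, adjusted p = 0.00533). In neither gene did the groups overlap. Neurog3 (-1.90, adjusted p = 0.0105) and the RNA-binding protein gene Lin28a (-1.30, adjusted p = 0.0202) were lower as well. Gfra1 and Nanos2, of the most primitive cells, were at or below 0.66 TPM in all 5 libraries. Levels of Id4 overlapped, at 0.970, 1.23 and 0.679 TPM in Stra8-deficient and 1.15 and 0.408 TPM in low-STRA8 libraries. In sorted populations, fewer cells of a type and less RNA per cell cannot be told apart. The list of differentiating spermatogonia held 17 tested genes, with Stra8 and Rhox13 called higher and 3 called lower (1 and 2 without the trend), against 10.3% and 14.1% of all genes. The 3 were the DNA methylase gene Dnmt3a, whose call was lost without the trend, the protease gene Prss50, with 697, 822 and 562 against 152 and 194 TPM (-1.79, SE 0.213, adjusted p = 0.00201), and Tex101, with 2142, 2504 and 1636 against 563 and 714 TPM (-1.50, SE 0.228, adjusted p = 0.00422). High-STRA8 libraries held 721 and 1025 TPM of Prss50, so that the low-STRA8 libraries were the lowest of all 7.

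Of 18 immediate early genes, which respond within minutes to growth signals or stress, 8 were lower and 1 higher in both fits (4 lower without Stra8-deficient replicate 2 and 5 without replicate 1). Nr4a1 had 11.1, 22.9 and 20.2 against 3.32 and 5.35 TPM (-1.86, SE 0.359, adjusted p = 0.00929, edgeR), and Fos 36.3, 28.5 and 23.5 against 14.7 and 12.2 TPM (-0.93, SE 0.177, adjusted p = 0.00876). Their groups did not overlap. Of 20 genes of retinoic acid response and metabolism, 6 were lower and 0 higher (5 and 1 without the trend). They included the receptor gene Rara (-0.58, adjusted p = 0.0114), the retinol carrier gene Rbp4 (-0.75, adjusted p = 0.00529), the binding protein gene Crabp2 (-1.20, adjusted p = 0.0127) and Cyp26b1, which degrades retinoic acid (-0.78, adjusted p = 0.0117). Rara had 33.4, 36.5 and 36.0 TPM in Stra8-deficient, 19.4 and 22.8 TPM in low-STRA8 and 23.1 and 22.1 TPM in high-STRA8 libraries, and its call was lost without low-STRA8 replicate 1.

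In metabolism, 9 of 26 genes of cholesterol synthesis were higher and 1 lower in both fits, although only 4 were higher without Stra8-deficient replicate 2 or low-STRA8 replicate 1, and 3 were higher and 2 lower by limma on log2(TPM + 1). Acat2, which condenses acetyl-CoA, had 21.7, 17.7 and 20.6 against 84.0 and 47.4 TPM (3.72-fold, log2 fold change 1.89, SE 0.196, adjusted p = 0.00162, edgeR). Msmo1 (0.94) and Cyp51 (0.65), which demethylate sterols, were higher. Mvd, which makes isopentenyl pyrophosphate, was lower, at 23.9, 25.9 and 22.4 against 9.79 and 11.8 TPM (-0.95, adjusted p = 0.00644).

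Other groups stood out mainly in the fit that kept the length trend, and their members were short or long. Of 75 cytosolic ribosomal protein genes (median length 516 bases), 42 were higher and 0 lower, with a median of 0.47; without the trend 7 were higher, with a median of 0.08. Their summed level was 167203, 173359 and 188558 TPM in Stra8-deficient and 204879 and 227029 TPM in low-STRA8 libraries. Rplp2, of the ribosomal stalk, had 3122, 3300 and 3424 against 4306 and 4212 TPM (0.69, adjusted p = 0.00768, edgeR, or 0.29 without the trend). Oxidative phosphorylation (40 of 81 higher, 6 without the trend), the proteasome (17 of 36 and 4) and mitochondrial ribosomal proteins (21 of 78 and 10) had 0 lower genes. These counts moved with single libraries: without Stra8-deficient replicate 2, 8 cytosolic ribosomal, 7 oxidative phosphorylation, 3 proteasome and 8 mitochondrial ribosomal protein genes were higher, and without low-STRA8 replicate 2, 9, 12, 4 and 8 were. Without Stra8-deficient replicate 1 they were 17, 14, 7 and 10, and without Stra8-deficient replicate 3, the library nearest to the low-STRA8 libraries in its length profile, 48, 62, 22 and 39. Without low-STRA8 replicate 1 the counts were 42, 22, 10 and 13, without high-STRA8 replicate 1 they were 33, 23, 5 and 12, and without replicate 2 they were 29, 25, 5 and 12.

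At the long end, 33 of 56 histone methylases, demethylases and chromatin remodellers (median length 6931 bases, 76.8% of them in the longest class) were lower and 4 higher (1 higher when any library but Stra8-deficient replicate 1 was left out, and 2 without that replicate), with a median of -0.68; without the trend 17 were lower and 6 higher, with a median of -0.24. Kmt2d, a histone H3 lysine methylase gene of 24788 bases, had 11.4, 9.85 and 8.28 against 1.48 and 2.56 TPM. Its log2 fold change was -2.07 (adjusted p = 0.00197, edgeR) with and -0.71 (adjusted p = 0.0437) without the trend. Chd3, a remodeller gene of 8529 bases, had 83.4, 83.2 and 69.5 against 23.1 and 29.6 TPM (-1.36 and -0.75 without the trend, adjusted p = 0.00585). The methylase genes Ezh2 (0.46) and Setdb1 (0.27) were among those higher. Of 47 dynein and kinesin motor genes, 21 were lower and 2 higher, and 9 and 3 without the trend; the heavy chain of cytoplasmic dynein, Dync1h1 (15678 bases), moved from -1.24 (adjusted p = 0.00239) to -0.19 (adjusted p = 0.191).

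**Figure D4:**
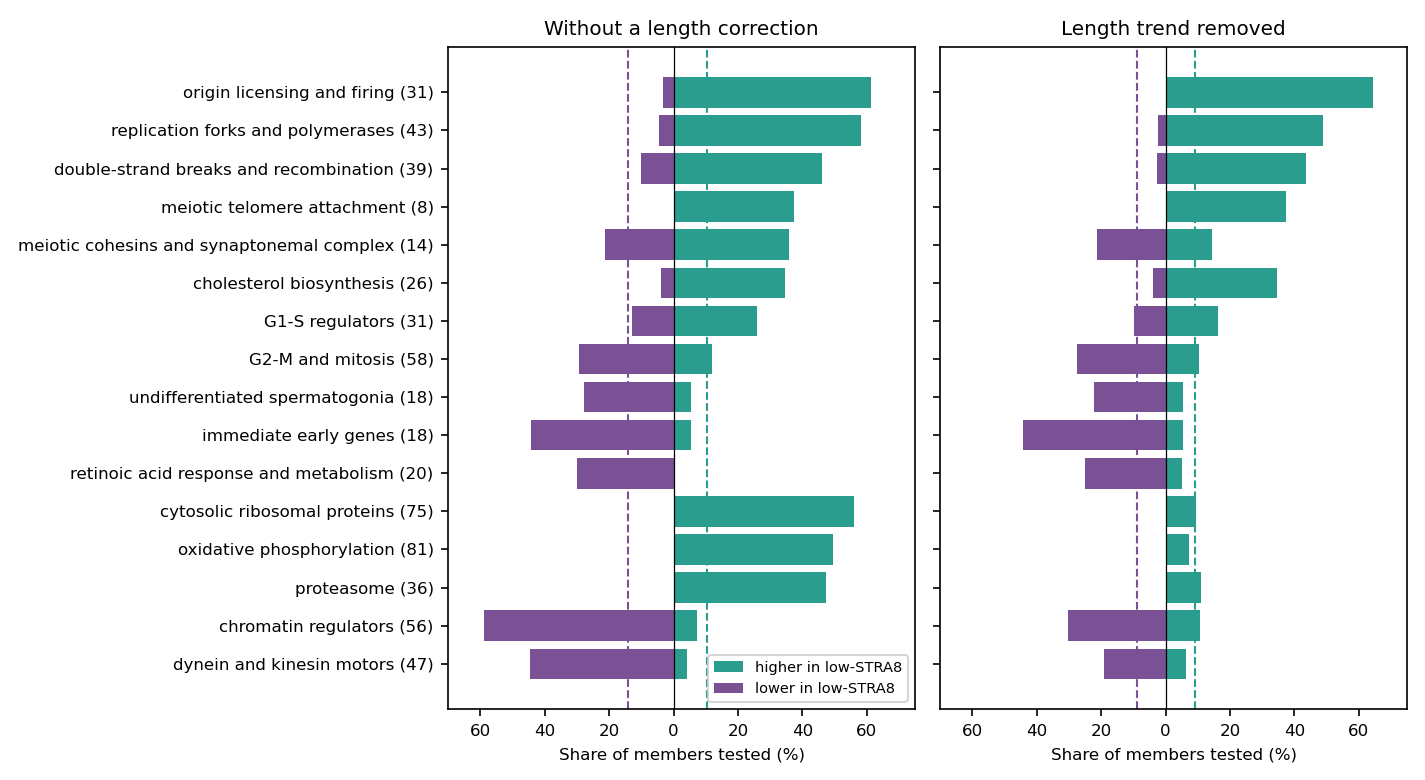
Share of tested members (number in parentheses) higher or lower in low-STRA8 cells in 16 gene lists, left without a length correction and right with the length trend removed; dashed lines are the shares over all genes, 10.3% and 14.1% on the left and 9.24% and 8.84% on the right. Replication and recombination genes keep long bars to the right in both panels, and ribosomal protein, oxidative phosphorylation and proteasome genes do so only on the left.

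Some genes went against the length trend; these were picked after their values were seen, among genes with non-overlapping groups. In the longest class, Cyld, a deubiquitinase gene (4384 bases), had 41.6, 34.0 and 30.0 TPM in Stra8-deficient and 85.5 and 64.3 TPM in low-STRA8 libraries (log2 fold change 1.31, SE 0.139, adjusted p = 0.00166, edgeR). Cbx5, which encodes heterochromatin protein 1 alpha (5301 bases), had 37.3, 33.3 and 26.4 against 56.0 and 47.1 TPM (0.81, SE 0.14, adjusted p = 0.00633). In the shortest class, Igfbp2, a binding protein for insulin-like growth factors (1134 bases), had 287, 263 and 192 against 43.1 and 51.2 TPM (-2.17, SE 0.249, adjusted p = 0.00187). Bsg, which encodes basigin, a surface glycoprotein (1254 bases), had 1232, 1395 and 986 against 339 and 376 TPM (-1.55, SE 0.194, adjusted p = 0.00241). Because these genes were picked for going against the trend, removing it enlarged each difference by construction, to 1.51, 1.13, -2.40 and -1.75.

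Among the 15 largest increases in genes with at least 5 TPM and non-overlapping groups were Stra8, Hist1h2ai, Hbb-bt, Tk1, Majin, Cdc6, Syngr4, C2cd6, Hba-a1, Rbpms2, Nrm, Cd209c, Hbb-bs and Tuba3a. Rbpms2, an RNA-binding protein gene, had 11.5, 13.9 and 11.9 against 60.2 and 33.7 TPM (2.13, SE 0.212, adjusted p = 0.00149). Replicate 1 of the low-STRA8 pair was higher, and both low-STRA8 values lay above the Stra8-deficient ones. The hemoglobin genes Hbb-bs (9.22, 4.52 and 6.91 against 22.9 and 27.0 TPM), Hbb-bt and Hba-a1 are products of red blood cells, whose part in these values was not tested. The macrophage and leukocyte genes Csf1r and Ptprc were at 2.37 and 1.176 TPM in Stra8-deficient replicate 3 and at or below 0.18 TPM in the other 4 libraries. Hba-a1 and the histone gene Hist1h2ai have near-identical copies among which reads cannot be placed with certainty, and the calls of both were lost without the trend, as was that of Hbb-bs. Tuba3a, an alpha-tubulin gene, also has a close copy.

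By the same limits of level and overlap, the 15 largest decreases were Plch2, Cacna1i, Actn2, Golgb1, Col22a1, Pacsin1, Mki67, Nav2, Cenpe, Tmf1, Cenpf, Rspo1, Elavl3, Irf9 and Rflna, all of them also called without the length trend. Plch2, a phospholipase C gene, had 5.85, 6.67 and 2.64 against 0.345 and 0.573 TPM (log2 fold change -3.46, SE 0.47, adjusted p = 0.0028, edgeR). Tmf1, which encodes a Golgi protein, had 40.1, 36.3 and 29.5 against 5.04 and 5.86 TPM (-2.51, SE 0.169, adjusted p = 0.000571). Irf9, of the interferon response, had 16.6, 17.6 and 11.2 against 3.20 and 2.48 TPM (-2.34, SE 0.227, adjusted p = 0.00149). In high-STRA8 libraries Plch2 remained at 0.359 and 0.553 TPM, while Tmf1 had 44.8 and 53.9 and Irf9 11.4 and 14.5 TPM. The comparisons of low-STRA8 with Stra8-deficient and with high-STRA8 cells share the low-STRA8 libraries, so the levels are only set side by side. Clu, a Sertoli cell product, was lower at 292, 474 and 406 against 148 and 51.1 TPM (-1.79, adjusted p = 0.0142). Its call was lost without Stra8-deficient replicate 2 or high-STRA8 replicate 2. Of 22 tested Sertoli cell markers 1 was lower and 0 higher in both fits, but without low-STRA8 replicate 1, 18 were lower, and without low-STRA8 replicate 2, 12 were higher and 1 lower.

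Binding of STRA8 was measured independently of these libraries, by FLAG ChIP-seq in unsorted synchronized testes of 3 Stra8 FLAG/FLAG mice and 3 untagged wild-type mice. The study chose testes in which most tubules held preleptotene cells that express STRA8. Binding was therefore not measured in the sorted low-STRA8 cells compared here. A gene was called bound when a summit lay within 1000 bases of a start site in at least 2 of 3 FLAG/FLAG libraries and in no wild-type library. Of the genes higher in low-STRA8 cells, 44.7% were bound (569 of 1274, Wilson 95% interval 42.0% to 47.4%), against 22.4% of the lower genes (389 of 1734, 20.5% to 24.5%) and 19.7% of genes that did not pass (1841 of 9326, 18.9% to 20.6%). Over all 12334 genes with start sites the share was 22.7%. These intervals cover counting error only. Bound genes were more common among longer transcripts, so the shares were also taken within length classes. From the shortest to the longest class, 31.7%, 47.5%, 52.3%, 54.4% and 59.4% of the higher genes and 4.00%, 9.24%, 16.6%, 20.6% and 27.0% of the lower genes were bound, against 14.2%, 20.5%, 24.8%, 24.96% and 29.0% of all genes. The intervals of higher and lower genes did not overlap in any class. Among genes called without the length trend, 52.4% of those higher (49.5% to 55.3%) and 18.5% of those lower (16.3% to 20.9%) were bound.

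**Figure D5:**
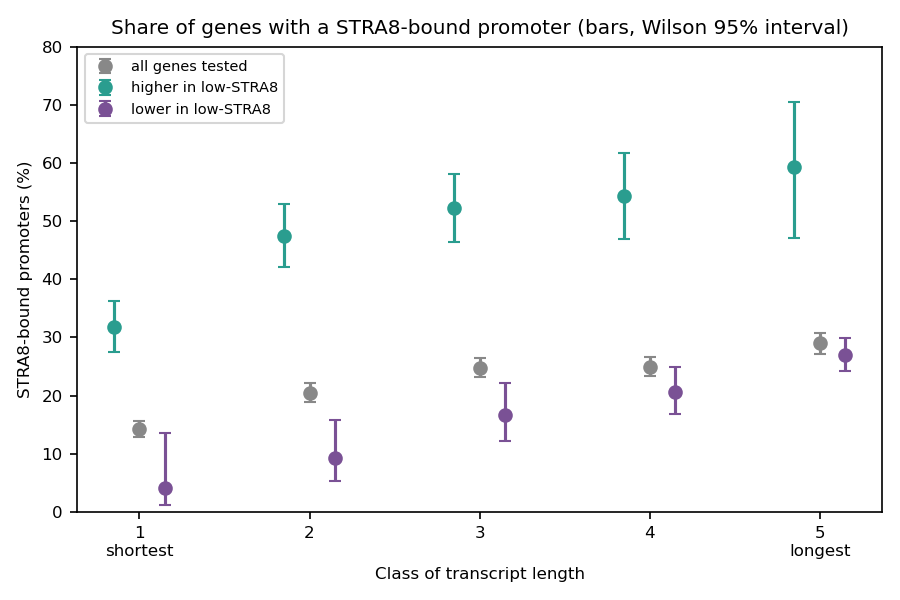
Share of genes with a STRA8-bound promoter (percent) in 5 classes of transcript length, for all genes tested and for genes higher or lower in low-STRA8 than in Stra8-deficient cells; bars are Wilson 95% intervals. The share of the higher genes runs from 31.7% to 59.4% and lies above that of the lower genes in each class.

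The sequence CNCCTCAG, searched on both strands, was present in 46.2% of the promoters of all genes tested (the 1000 bases on each side of a start site, taking the start site with the most matches). It was present in 52.1% of the promoters of higher genes and 51.4% of those of lower genes, with intervals that overlap. With the length trend removed, it was present in 55.1% (52.2% to 58.0%) of higher and 47.9% (44.9% to 50.9%) of lower genes. In the longest class it was present in 71.9% (59.9% to 81.4%) of higher and 55.1% (51.9% to 58.2%) of lower genes, against 52.5% of all genes of that class. In the other classes, from the shortest upwards, it was present in 47.7%, 54.9%, 48.4% and 56.7% of higher genes. Of lower genes, 54.0%, 49.6%, 43.1% and 47.0% had it, and in each of these classes the intervals of higher and lower genes overlapped. Of the 569 bound and higher genes, at least 161 had a match within 100 bases of their strongest summit. Not every chromosome was searched for these matches, and genes left out of the search remain in the 569. No such share is given for bound genes in general, so the count has no background here. The windows of the 6 genes with the largest fold change among these 161 are shown because they place the sequence beside a measured summit. Bases come from the RefSeq copy of GRCm38 (mm10), run 5′ to 3′ on the strand of the match, and have the match in capitals.
Pparg: ctcagcccgtCCCCTCAGcccggtcacc
Rad51ap2: cctggcctgtCTCCTCAGaaccgcctcc
Majin: gttcctccagCACCTCAGaaaggtggcc
C2cd6: gggttcctacCACCTCAGccgggtttcc
Wbp2nl: gcctgaaagtCCCCTCAGgcacctttca
Rrm2: ctaagcgaccCACCTCAGccccacacgg

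These windows lay at chr6:115361233-115361260 (minus strand), chr12:11456116-11456143 (plus), chr19:6184496-6184523 (minus), chr1:59094769-59094796 (minus), chr15:82299063-82299090 (minus) and chr12:24708644-24708671 (minus), in that order. The matches of Pparg, Rad51ap2, Majin, C2cd6, Wbp2nl and Rrm2 were 1, 26, 38, 53, 50 and 30 bases from the summit and 295, 50, 121, 118, 122 and 416 bases downstream of a start site. Pparg, a lipid-sensing nuclear receptor gene, had 8 matches in its promoter, and summit scores (-log10 p) of 248, 170 and 207 in the 3 FLAG/FLAG libraries. Its RNA was at 2, 0 and 3 counts in Stra8-deficient and 132 and 26 counts in low-STRA8 libraries (0.101, 0 and 0.141 against 5.46 and 1.16 TPM), different at an adjusted p of 0.00395 (edgeR). With so few counts in the Stra8-deficient libraries, no fold is given. Rad51ap2 had 0.103, 0.0323 and 0.0339 against 1.41 and 0.570 TPM (adjusted p = 0.00272), and both Pparg and Rad51ap2 were far higher in high-STRA8 libraries, at 33.4 and 42.0 and at 9.67 and 10.1 TPM. Wbp2nl, which encodes a sperm protein, had 5.97, 6.87 and 5.60 against 26.4 and 14.5 TPM (log2 fold change 1.92, SE 0.229, adjusted p = 0.00199), and C2cd6 had 3.66, 4.84 and 3.96 against 23.6 and 10.3 TPM (2.21, SE 0.296, adjusted p = 0.00273).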

How the data were processed

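The authors filtered 40-base single-end reads of stranded poly(A) libraries and, per the labels and the study's methods, quantified transcripts with kallisto 0.43.0 on an Ensembl annotation of mm10. The deposited tables hold estimated counts and effective lengths per transcript, with TPM per transcript and, for protein-coding genes, rescaled TPM. The deposited ChIP-seq summits, called with MACS2 2.1.1.20160309 after alignment with Bowtie 1.2.0, carry a -log10 p score. Deposited tables of counts that the authors had divided by DESeq2 1.18.1 normalization factors were not used, since the estimated counts themselves were at hand. Groups came from the sample labels.

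Here, transcripts were joined to genes (75555 of 75737 matched to GENCODE M21; 12141 genes by symbol and 199 as a run of transcripts, where summed TPM matched within 0.2% or 0.003 TPM); 19 genes stayed without counts. Rounded counts were tested in 1 fit over 7 libraries with edgeR 4.0.16 (TMM, robust quasi-likelihood F test, 4 residual degrees of freedom, Benjamini-Hochberg over 12340 genes) in R 4.3.3; the common biological coefficient of variation was 0.172. Shares used Python 3.11.15 with scipy 1.17.1. Alternatives used DESeq2 1.42.0, limma 3.58.1 with pseudocounts of 1 and 0.1, other filters, offsets for effective length or for a length trend, and left-out libraries. The scripts were tested on simulated data. Replicates differed beyond sampling noise.

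The members, the 30 gene lists and the tests were chosen with earlier results of these data known. Named are Stra8 and genes the study names, the 15 largest increases and decreases, up to 4 genes of each list with the smallest adjusted p, the most abundant gene of each somatic marker list, and exceptions said to be chosen after their values were seen, among them Ankrd31, Ccnb1, Crabp2, Csf1r, Ddx4, Ezh2, Gm4969, Kit, Mlh3, Pcna, Plk1, Prm1, Ptprc, Recql4, Rfc1, Rhox13, Setdb1, Tex15 and Wee1. Rad51ap2 and Wbp2nl are named as bound genes with the largest increases. Some genes that this rule selects are not reported here.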

Additional observations from a re-analysis of the deposited data

How the results depend on the processing

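Against 1274 higher and 1735 lower genes, limma on log2(TPM + 1) gave 498 and 2668, limma on log2(TPM + 0.1) 503 and 2716, and a fit of the 5 libraries only 679 and 1129; without the length trend 1091 were lower. Leaving out 1 library gave 618 to 1437 higher and 1085 to 1694 lower genes. DESeq2 size factors, upper-quartile factors, the DESeq2 test, other TPM filters and effective-length offsets each kept both counts within 1.5 times. Low-STRA8 and Stra8-deficient libraries with the same number did not deviate together (r = -0.17 and -0.15), so the numbers do not pair them, and a replicate block gave 1054 higher and 1539 lower genes. The difference between the longest and the shortest length class, -0.65, lay between -0.77 and -0.58 with 1 library left out. It was -0.77 with the block, -0.63 with effective-length offsets and, by construction, 0.0288 with the length trend removed (rho 0.0370); between Stra8-deficient replicate 3 and replicates 1 and 2, chosen after seeing the data, it was -0.34. Of 152 named genes past the threshold, 108 kept their call and direction in every alternative tried. With the length trend removed, 25 named genes lost and 3 gained a call; without low-STRA8 replicate 1, 27 lost and 1 gained one. The bound share was 28.6% of higher and 11.5% of lower genes when a summit was required in all 3 FLAG/FLAG libraries, 20.5% of lower genes within 500 bases, and 37.1% and 17.99% with summits of score 10 or more. With 2 against 3 libraries, differences that are small against the spread between replicates could not be detected, and the cause of the length trend was not tested.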

Other observations

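The X chromosome stood apart slightly in the fit that kept the length trend. Its 546 tested genes had a median log2 fold change of 0.14, against medians between -0.03 and 0.08 on the 19 autosomes, with 61 genes higher (11.2%) and 34 lower (6.23%); on the autosomes 10.3% were higher and 14.4% lower. X-linked transcripts were shorter (median 2077 against 2554 bases). With the length trend removed the X median was 0.09, with 45 of 546 genes higher and 27 lower. Autosomes then had a median of 0.01, with 1095 of 11770 genes higher and 1062 lower.

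H2afx, whose product marks DNA breaks when phosphorylated, had 63.5, 54.6 and 55.2 TPM in Stra8-deficient, 78.6 and 97.4 TPM in low-STRA8 and 40.1 and 39.6 TPM in high-STRA8 libraries. It was higher in low-STRA8 than in Stra8-deficient cells (log2 fold change 0.82, adjusted p = 0.00501, edgeR), and high-STRA8 cells were below low-STRA8 cells (-1.29, adjusted p = 0.000925).

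Counts of the remaining lists are given as higher and lower of those tested, beside 10.3% and 14.1% of all genes. Those with the length trend removed stand beside 9.24% and 8.84% of all genes. Those by limma on log2(TPM + 1) stand beside 498 higher and 2668 lower of 12340 genes. Glycolysis had 5 and 0 of 19 (3 and 0 with the length trend removed, and 1 and 1 by limma on log2(TPM + 1)). Histone genes had 6 and 0 of 43 (2 and 0, and 5 and 2, in the same order). Germline transcription factors had 2 and 4 of 28 (2 and 4, and 1 and 10), and the piRNA pathway 3 and 3 of 31 (1 and 0, and 1 and 10). The p53 targets had 1 and 1 of 24 (2 and 2, and 1 and 6), and heat shock genes and chaperonins 3 and 1 of 19 (2 and 1, and 1 and 3). Meiotic initiation factors had 1 and 1 of 8 (2 and 1, and 1 and 2), the higher gene being Stra8, the targeted gene itself. Pachytene and later germ cell genes had 1 and 0 of 10 (1 and 1, and 0 and 1). Without low-STRA8 replicate 1, glycolysis had 2 higher and 3 lower genes and histone genes 2 and 0; without Stra8-deficient replicate 1, glycolysis had 2 higher genes and the piRNA pathway 0. Leydig cell markers had 0 and 1 of 10 (0 and 1, and 0 and 2), peritubular and endothelial markers 0 and 1 of 10 (0 and 0, and 0 and 2), and macrophage and blood cell markers 3 and 0 of 19 (1 and 0, and 3 and 0), the 3 being hemoglobin genes.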
